A study of Mus musculus with 18 samples.

Results

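Pabpc1, Pabpc4 and Pabpn1, mouse genes of poly(A)-binding proteins, were followed in ribosome footprints and in cytoplasmic input RNA during labelling with 4-thiouridine (4sU). They are 3 of 14002 genes that had reads in any library. Pabpc1 was chosen by its measured values in these same libraries, namely its converted share in footprints against input and the course of its footprint to input ratio, so its values are given as a description with standard errors and without tests. Pabpc4 and Pabpn1 were added by name as related genes, and their values were tested.

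The cells were RAW264.7, a virus-transformed mouse macrophage-like line. They received 200 µM 4sU, an analogue of uridine built into RNA during transcription, which is read as a T-to-C conversion after chemical treatment. Each of 9 lysates gave 1 footprint library, from RNase I-digested monosomes, and 1 input library, from alkali-fragmented cytoplasmic RNA of the same lysate, and cycloheximide was in the wash and the lysis buffer of every sample. Labelling lasted 20, 30 and 40 min in experiment 2, whereas experiment 1 covered 0 min (no 4sU), 20, 40, 60, 90 and 120 min, so that every time other than 20 and 40 min had a single lysate.

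In experiment 2 the footprint libraries had between 29065324 and 87536081 reads and the input libraries between 26359243 and 48139330. In experiment 1 they had between 11771175 and 23327760 in footprints and between 6230562 and 7933796 in input. All 8 macrophage markers had reads, with summed levels of 9094 to 12290 CPM in footprints and 5993 to 7657 CPM in input. Of 17 markers of other cell types, 12 had no read in footprints and 11 had none in input, and their sum reached at most 0.663 CPM in footprints and 0.727 CPM in input. The labels do not say whether lysates came from separate cultures, so the p-values reflect no more than the spread between these samples, which may be technical. The tests also pooled that spread over genes, so it is not the spread of each gene alone.

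Cytoplasmic poly(A)-binding protein coats the poly(A) tail of mRNAs through its RNA recognition motifs and binds the initiation factor eIF4G, which links the tail to the cap. Pabpc1 encodes the main form in somatic cells. Its mRNA is a terminal oligopyrimidine (TOP) mRNA, a class that begins with a pyrimidine tract and whose translation follows growth signals through mTORC1, and its leader holds an A-rich stretch to which the protein itself can bind and lower translation. Pabpc4 encodes another cytoplasmic form, first described in activated T cells and platelets. Pabpn1 encodes the nuclear poly(A)-binding protein, which stimulates poly(A) polymerase and begins with an alanine-rich stretch.

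The first 60 coding bases of each gene are shown because a read can record labelling only where it holds a T, and the genes differ in this. They are given 5′ to 3′ on the coding strand from the GRCm38 reference (GENCODE M21), with every T in capitals. Each lies in the first coding exon, downstream of the 5′ untranslated region.
Pabpc1: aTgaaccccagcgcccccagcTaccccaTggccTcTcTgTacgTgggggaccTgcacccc
Pabpc4: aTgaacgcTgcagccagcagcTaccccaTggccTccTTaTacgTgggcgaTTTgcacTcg
Pabpn1: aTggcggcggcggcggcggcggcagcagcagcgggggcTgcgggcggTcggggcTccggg
The stretch of Pabpc1 lies at chr15:36608447-36608506 on the minus strand and holds 9 T. That of Pabpc4 lies at chr4:123283615-123283674 on the plus strand and holds 13 T, and that of Pabpn1 at chr14:54894156-54894215 on the plus strand holds 4 T.

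The gene Pabpc1 (ENSMUSG00000022283) spans bases 36595661 to 36609668 of chromosome 15 over all its transcripts. The transcript used here has 15 exons and 1908 coding bases, of which 23.1% are T. Pabpc4 (ENSMUSG00000011257) spans bases 123262351 to 123298925 of chromosome 4, and the transcript used has 15 exons and 1980 coding bases, of which 20.8% are T. Pabpn1 (ENSMUSG00000022194) spans bases 54892500 to 54898169 of chromosome 14, and the transcript used has 7 exons and 906 coding bases, of which 15.8% are T. In Pabpn1 the T content was 8.26% over the 339 coding bases of the first coding exon and 20.3% over the rest.

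All 3 genes share sequence with other annotated genes. Of the 28-base windows of the coding sequence, 1002 of 1881 in Pabpc1 also occur in another gene, chiefly the processed pseudogenes Gm16580 with 601 windows and Gm8276 with 544. In Pabpc4 it was 1786 of 1953, of which 1655 occur in the transcribed processed pseudogene Gm10110. In Pabpn1 it was 549 of 879, of which 541 occur in Gm20521, a protein-coding gene model that overlaps Pabpn1. None of these 4 genes is listed in any library. How reads with several matches were treated, and which region of a gene was counted, are points not given in the sources used here, so the levels of all 3 genes are uncertain to that extent.

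The reads themselves were compared with these windows by their number of T. Of all Pabpc1 reads 56.1% held over 6 T, and of all Pabpc4 reads 46.5%. Of all Pabpn1 reads 0.846% did, while 22.6% of all its coding windows hold over 6 T. The 330 Pabpn1 windows found in no other gene hold 2.42 T on average and at most 5, whereas the 549 shared ones hold 5.56 T on average. The counted Pabpn1 reads held 3.45 ± 0.134 T in footprints and 3.25 ± 0.169 T in input (SD, n = 9 each). In the number of T, the Pabpn1 reads thus lay nearer to its unshared than to its shared windows.

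**Figure D1:**
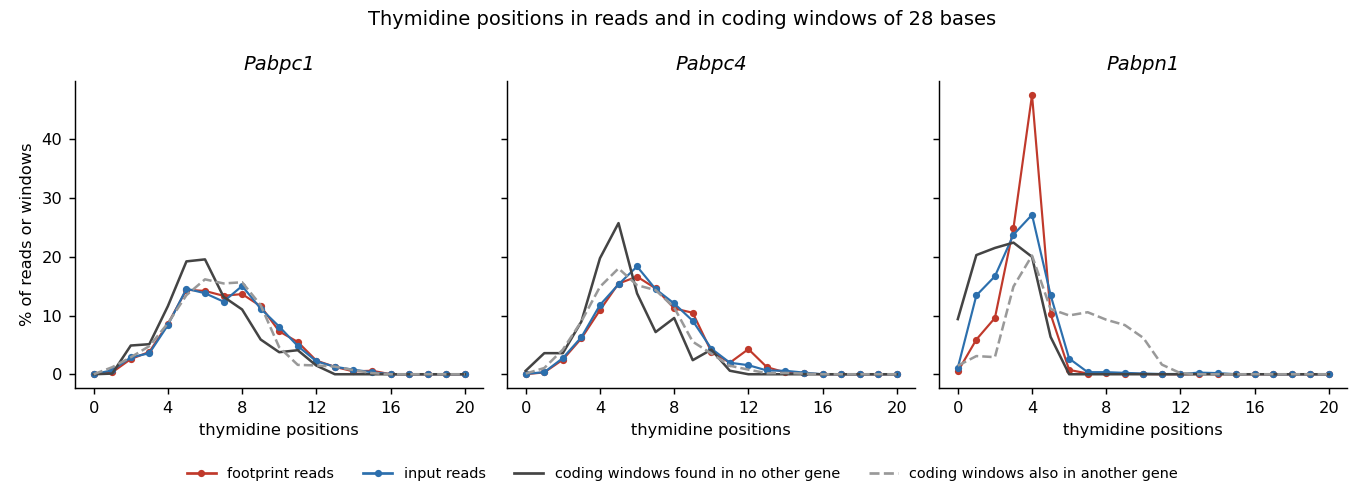
Share of reads (%) of Pabpc1, Pabpc4 and Pabpn1 by how many T a read held, summed over the footprint (red) and the input (blue) libraries, beside the share of 28-base coding windows found in no other gene (solid grey) and also found in another gene (dashed grey). The reads of Pabpc1 and Pabpc4 extend beyond 12 T, whereas Pabpn1 has 0.846% of its reads above 6 T.

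Footprints of Pabpc1 were lower at the longer labelling times of experiment 1. At 0, 20, 40, 60, 90 and 120 min they were at 739, 812, 643, 361, 218 and 149 normalised CPM (reads relative to library size, scaled by edgeR's TMM factors over all 18 libraries). In experiment 2 they were at 942, 936 and 749 CPM at 20, 30 and 40 min. The 3 lysates labelled for 60 min or longer, all of experiment 1, were the lowest of all 9. How many other genes had this order was not counted.

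Input reads of Pabpc1 followed no such order. In experiment 1 the input stood at 708, 522, 447, 717, 2186 and 657 CPM at 0, 20, 40, 60, 90 and 120 min, and in experiment 2 at 1704, 1611 and 652 CPM at 20, 30 and 40 min. Thus 3 input libraries lay at 1611 CPM or above and the other 6 between 447 and 717. In the same 3 libraries Pabpc4 was at 447, 307 and 308 CPM, inside the 292 to 478 CPM of the other 6 input libraries. The mean number of T per Pabpc1 read was 6.87 to 7.41 over the input libraries, and 7.41, 7.09 and 6.99 in the 3 high ones.

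In raw reads, Pabpc1 footprints numbered 53643, 77376 and 20486 at 20, 30 and 40 min of experiment 2, and 16770, 15508, 12631, 4067, 3322 and 2234 over the 6 times of experiment 1. The input had 93670, 72731 and 19925 reads in experiment 2, and 5062, 3854, 3157, 6122, 16020 and 4065 in experiment 1. The lowest of these counts was that of the 120 min footprints.

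Fitted over hours of 4sU, the Pabpc1 footprints had a log2 slope of -1.51 per hour with a standard error of 0.181, and 0.156% of 10226 genes had a lower slope. Footprints are part of the ratio by whose course Pabpc1 was chosen, so that rank only describes it. The Pabpc1 input slope was 0.18 per hour with a standard error of 0.442. That slope changed sign to -0.37 without the 90 min lysate, whose input was the highest, and was 0.66 in experiment 1 alone. Among all genes, the call for a change with time at an adjusted p under 0.05 was met by 20.4% in footprints and 6.24% in input (0.403% higher and 5.83% lower), and no call is read for Pabpc1.

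The cytoplasmic relative Pabpc4 moved less. Its footprints were at 152, 173, 167, 154, 133 and 129 CPM over the 6 times of experiment 1, and at 233, 212 and 223 CPM over the 3 times of experiment 2. The Pabpc4 input was at 339, 310, 329, 372, 447 and 478 CPM in experiment 1, and at 307, 308 and 292 CPM in experiment 2. The 2 highest input values were those of 90 and 120 min, and the 2 lowest footprint values those of 120 and 90 min. By edgeR's quasi-likelihood test the input rose by 0.34 log2 per hour (SE 0.0733, adjusted p = 0.0265), a direction in which 0.403% of 9927 genes passed. The call was lost without the lysate of experiment 1 at 20, 60, 90 or 120 min (adjusted p = 0.0524, 0.0503, 0.109 and 0.366) or without that of experiment 2 at 20 min (adjusted p = 0.0527). The footprint slope of Pabpc4 was -0.35 per hour (SE 0.131) and did not pass (edgeR adjusted p = 0.0785). It passed with experiment as a replicate block, at a slope of -0.20 (adjusted p = 0.0464), by DESeq2's Wald test (slope -0.35, adjusted p = 0.0289) and without the unlabelled lysate (slope -0.48, adjusted p = 0.014).

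Pabpn1 had few reads, 464 to 1656 in footprints and 78 to 728 in input. Its footprints were at 21.9, 25.9, 23.6, 46.3, 31.5 and 37.8 CPM over the 6 times of experiment 1, and at 29.1, 19.2 and 41.3 CPM in experiment 2. The input of Pabpn1 was at 20.1, 17.9, 11.1, 16.4, 13.2 and 17.1 CPM in experiment 1, and at 13.2, 14.5 and 15.0 CPM in experiment 2. In experiment 1 the footprints of 60 min or longer lay above those of 0 to 40 min, while the 41.3 CPM at 40 min of experiment 2 was as high as those and the input had no order in time. The slopes of 0.37 per hour in footprints (SE 0.184, edgeR adjusted p = 0.166) and -0.07 in input (SE 0.141, edgeR adjusted p = 0.782) did not pass. The input slope changed sign to 0.06 without the unlabelled lysate.

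**Figure D2:**
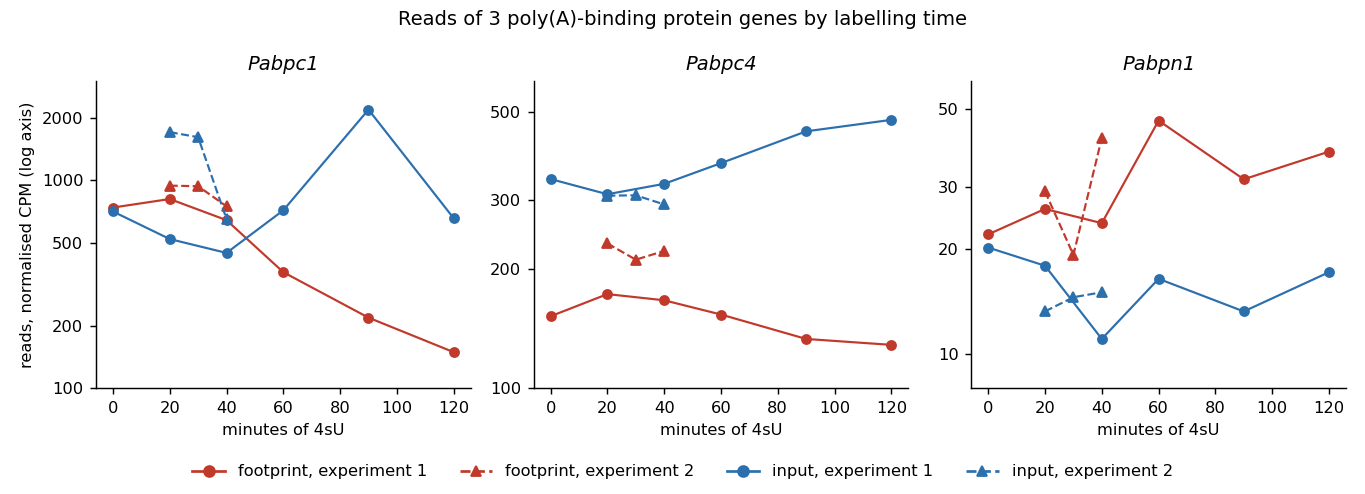
Reads of each gene in normalised CPM (log axis) against minutes of 4sU, with 1 point for each library, footprints in red and input in blue, experiment 1 as circles and experiment 2 as triangles. Pabpc1 footprints reach 149 CPM at 120 min, while its input has 3 libraries at 1611 CPM or above.

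The lysates of 20 and 40 min, which both experiments held, allowed the experiments to be compared. Pabpc1 input was at 1704 and 652 CPM at 20 and 40 min of experiment 2, against 522 and 447 CPM in experiment 1, a fitted difference of 1.20 log2 (SE 0.148, or 0.563 by DESeq2's Wald test), with the wider gap at 20 min. Its footprints were at 942 and 749 CPM in experiment 2, against 812 and 643 CPM in experiment 1, a difference of 0.22 log2 (SE 0.0718). The footprints of Pabpc4 were higher in experiment 2 by 0.43 log2 (SE 0.0802, edgeR adjusted p = 1.69e-06), and those of Pabpn1 by 0.49 log2 (SE 0.103, edgeR adjusted p = 2.61e-05), where 33.2% of 10211 genes passed in either direction. With so few libraries, these fits took their spread largely from other genes. With DESeq2 size factors the edgeR adjusted p was 0.00052 for Pabpc4 and 0.0085 for Pabpn1. The Pabpn1 difference ended just above the threshold by DESeq2's Wald test (adjusted p = 0.0502). Its gap was uneven, at 29.1 CPM in experiment 2 against 25.9 in experiment 1 at 20 min, and 41.3 against 23.6 at 40 min. In input, where 48.3% of 10278 genes passed, 25.6% as higher and 22.6% as lower, the differences were -0.02 for Pabpc4 (SE 0.1, edgeR adjusted p = 0.863) and 0.03 for Pabpn1 (SE 0.167, edgeR adjusted p = 0.889). Whether the footprint and input differences themselves differed was not tested.

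Most genes differed between footprints and input, since 75.5% of 10592 genes passed the test over all lysates, 35.3% higher and 40.3% lower in footprints. The ratio of normalised CPM, footprints over input, compares ribosome occupancy with mRNA level, and fewer ribosomes on every mRNA and fewer mRNAs with ribosomes cannot be told apart in it. For Pabpc1 it was 1.04, 1.56, 1.44, 0.504, 0.0999 and 0.227 at 0, 20, 40, 60, 90 and 120 min of experiment 1. In experiment 2 the Pabpc1 ratio was 0.553, 0.581 and 1.15 at 20, 30 and 40 min. Ratios above 1 were thus found in 4 lysates of 0 to 40 min, and the 3 lysates of 60 min or longer lay at or below 0.504. Read against the 10592 genes of the same lysate, 57%, 80.6%, 75%, 19.5%, 1.3% and 4.68% had a lower ratio than Pabpc1 over the 6 times of experiment 1, and 22%, 25.4% and 59.4% over those of experiment 2. The 20 min lysate of experiment 2 thus stood close to the 60 min lysate of experiment 1. Since Pabpc1 was chosen by the course of this ratio, these ranks only describe it.

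The low ratio at 90 min came with both a high input and low footprints. The 2 lysates of 20 min, in which footprints were at 942 and 812 CPM, had ratios on opposite sides of 1, at 0.553 in experiment 2 and 1.56 in experiment 1. Over all lysates the log2 ratio of Pabpc1 was -0.74 ± 1.31 (SD, n = 9), with 4 lysates above 0 and 5 below.

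Pabpc4 was lower in footprints than in input, in normalised CPM, in every lysate. Its ratio was 0.449, 0.558, 0.507, 0.414, 0.298 and 0.269 over the 6 times of experiment 1, and 0.757, 0.687 and 0.762 over those of experiment 2. Footprints averaged 175 ± 38.5 CPM and input 354 ± 66.5 CPM (SD, n = 9 each). The fitted difference was -1.01 log2 (SE 0.149, edgeR adjusted p = 1.64e-05), and it was lower in 9 of 9 lysates. Within experiment 2 the log2 ratio was -0.45 ± 0.084 (SD, n = 3) and within experiment 1 it was -1.31 ± 0.421 (SD, n = 6).

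Pabpn1 went the other way, with higher normalised CPM in footprints than in input in 9 of 9 lysates. Its ratio was 1.09, 1.45, 2.14, 2.82, 2.38 and 2.21 over the 6 times of experiment 1, and 2.2, 1.32 and 2.75 over those of experiment 2. Footprints averaged 30.7 ± 9.29 CPM and input 15.4 ± 2.77 CPM (SD, n = 9 each), a fitted difference of 0.96 log2 (SE 0.155, edgeR adjusted p = 4.08e-05). Within experiment 2 the log2 ratio was 1.00 ± 0.543 (SD, n = 3) and within experiment 1 it was 0.94 ± 0.51 (SD, n = 6). In number of T these reads lay near the unshared, T-poor part of the gene, as described above, and the part of that in the difference was not tested.

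The change of the ratio with time had a log2 slope of -1.70 per hour for Pabpc1 (SE 0.504), and 0.104% of 10592 genes had a lower one. Since Pabpc1 was chosen by the course of this ratio, that rank is no separate result. Without the 90 min lysate the Pabpc1 slope was -1.06. For Pabpc4 it was -0.68 per hour (SE 0.16), which did not pass (edgeR adjusted p = 0.399), and for Pabpn1 0.44 per hour (SE 0.251, edgeR adjusted p = 1). By edgeR 0 genes passed, 0% of all, where 255 had an unadjusted p under 0.05, and DESeq2's Wald test called 9. By that Wald test the Pabpc4 slope of -0.69 passed (adjusted p = 0.0301), and without the unlabelled lysate its edgeR slope of -0.90 passed (adjusted p = 0.0365).

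New Pabpc1 mRNA was followed through the converted reads, those with at least 1 T-to-C conversion. A read of new mRNA without a conversion counts as unconverted. In Pabpc1 footprints of experiment 1 their share was 0.227%, 0.219%, 1.48%, 4.87%, 7.98% and 11.5% at 0, 20, 40, 60, 90 and 120 min. In Pabpc1 input it was 0.257%, 0.441%, 0.824%, 1.67%, 2.02% and 4.06% at the same times. The footprint share was thus below the input share at 0 and 20 min and above it from 40 min on. At 20 min the footprint share was also no higher than the 0.227% of the unlabelled footprints. The 95% Wilson intervals of both materials overlapped at 0 and 20 min and not at the later times. Over all genes the order was the reverse at these later times, with 5.54% in footprints and 8.07% in input at 120 min.

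The 95% Wilson intervals of Pabpc1, which cover counting error only, ran at 120 min from 10.2% to 12.9% in footprints and from 3.49% to 4.71% in input. At 60 min they ran from 4.25% to 5.57% in footprints and from 1.37% to 2.02% in input. In experiment 2 the share was 0.181%, 0.464% and 1.02% in footprints at 20, 30 and 40 min, and 0.363%, 0.784% and 1.09% in input. At 40 min of experiment 2 the intervals of footprints (0.891% to 1.17%) and input (0.959% to 1.25%) overlapped, while at 20 and 30 min the footprint share was lower.

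Reads of Pabpc1 with at least 2 conversions, of which there were 0 in either unlabelled library, made up 3.13% of footprints and 1.13% of input at 120 min, 1.63% of footprints and 0.531% of input at 90 min, and 0.639% of footprints and 0.539% of input at 60 min. In experiment 2 the order was reversed, with 0.0207% of footprints and 0.1% of input at 30 min, and 0.0927% of footprints and 0.206% of input at 40 min. In conversions per 1000 T, which takes the T content out, Pabpc1 had 7.84, 14.1 and 21.6 in footprints at 60, 90 and 120 min, and 3.28, 3.53 and 7.54 in input. The libraries as a whole had 4.3, 7.62 and 10.9 in footprints and 7.72, 10.1 and 16.9 in input at the same times.

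**Figure D3:**
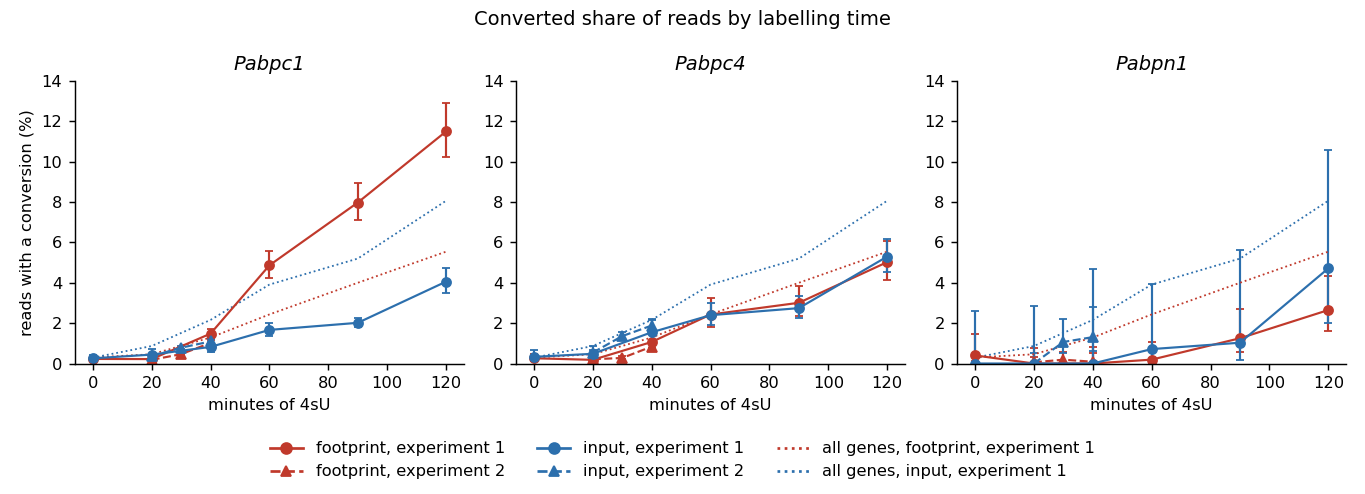
Share of reads with at least 1 T-to-C conversion (%) against minutes of 4sU, footprints in red and input in blue, with 95% Wilson intervals as bars and the share over all genes of experiment 1 as dotted lines. Pabpc1 footprints reach 11.5% at 120 min, above its input at 4.06%, while Pabpc4 footprints and input end at 5.03% and 5.3%.

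Pabpc4 did not show the same separation. Its converted share in footprints was 0.261%, 0.182%, 1.07%, 2.43%, 3.01% and 5.03% over the 6 times of experiment 1, and 0.211%, 0.274% and 0.838% over those of experiment 2. In input it was 0.33%, 0.48%, 1.55%, 2.4%, 2.74% and 5.3% in experiment 1, and 0.538%, 1.36% and 1.88% in experiment 2. At 60, 90 and 120 min the intervals of footprints and input overlapped, and in experiment 2 the footprint share was the lower one at all 3 times.

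Pabpn1 had too few converted reads for a comparison, 27 of 6895 in labelled footprints and 20 of 2396 in labelled input, and it did not reach the minimum of 50 converted reads. Its share at 120 min was 2.65% in footprints (Wilson interval 1.61% to 4.33%) and 4.72% in input (2.03% to 10.6%). At 20 min of experiment 2 it had 1 converted read of 1656 in footprints and 0 of 728 in input, which allows a share of up to 0.412% (3 reads). Its reads held fewer T than those of the other members, so its shares are not set beside theirs.

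The odds of conversion were compared between footprints and input within each lysate, on the log2 scale, where a value below 0 means that footprints held the smaller converted share. For Pabpc1 the log2 odds ratio was -1.01, 0.86, 1.59, 2.07 and 1.62 at 20, 40, 60, 90 and 120 min of experiment 1. In experiment 2 the Pabpc1 odds ratio was -1.01, -0.76 and -0.10 at 20, 30 and 40 min. Its footprint share at 20 min was, in both experiments, no higher than in the unlabelled footprints of experiment 1. The median over 8276 genes was below 0 in every lysate, at -0.82, -0.75, -0.62, -0.23 and -0.45 in experiment 1, and at -1.09, -1.65 and -1.07 in experiment 2. At 90 min 99.6% of genes lay below Pabpc1, and at 20 min 54.6% did in experiment 2 and 42.3% in experiment 1. Since Pabpc1 was chosen by this measure, these ranks only describe it. In reads with the same number of T the Pabpc1 values were close to these, with a mean of 0.44 ± 1.27 against 0.41 ± 1.28 for all reads (SD, n = 8 each).

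Fitted over the labelled lysates, the Pabpc1 log2 odds ratio was 0.46 (SE 0.191), and 99.3% of genes lay below it. Pabpc1 was chosen by this measure, so that rank is no separate result. The other values of this odds ratio were as follows. It was -0.62 in experiment 2 alone and -0.07 when a converted read needed at least 2 conversions. In experiment 1 alone it was 1.39 (SE 0.166). It was 0.28 without the lysate of 60 min, 0.21 without that of 90 min and 0.28 without that of 120 min, and 0.40 (SE 0.388) from the differences within lysates. Experiment 1 alone held the times beyond 40 min, so those times and the experiment cannot be told apart, and at 40 min the 2 experiments lay at -0.10 (experiment 2, 95% interval -0.38 to 0.17) and 0.86 (experiment 1, 0.26 to 1.45). Of 8276 genes 59.5% passed, 59.4% as lower in footprints and 0.145%, or 12 genes, as higher.

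For Pabpc4 the log2 odds ratio was -1.41, -0.54, 0.02, 0.14 and -0.08 at 20, 40, 60, 90 and 120 min of experiment 1, and -1.35, -2.32 and -1.18 over experiment 2. Its footprint share at 20 min was, in both experiments, below that of the unlabelled footprints. The odds ratio fell below 0 in the fit, at -0.80 (SE 0.218, edgeR adjusted p = 0.00114), beside a median of -0.79 over all genes, and was below 0 in 6 of 8 lysates. From the differences within lysates it was -0.83 with a wider error (SE 0.303, limma adjusted p = 0.0327). Within experiment 2 the mean was -1.62 ± 0.616 (SD, n = 3) and within experiment 1 it was -0.38 ± 0.632 (SD, n = 5). In experiment 1 alone the fitted value of -0.17 did not pass (edgeR adjusted p = 0.527), nor did -0.82 with at least 2 conversions per read (edgeR adjusted p = 0.124).

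Set apart, the converted and unconverted reads of Pabpc1 had different courses in experiment 1. The unconverted reads in footprints were at 737, 811, 633, 344, 201 and 132 CPM over the 6 times. Converted footprints were at 1.67, 1.78, 9.52, 17.6, 17.4 and 17.1 CPM at the same times. So the unconverted footprints were lower at each time after 20 min, while the converted ones were higher at each time up to 60 min and then stayed between 17.1 and 17.6 CPM. In input the unconverted reads were at 706, 519, 444, 705, 2142 and 630 CPM, and the converted ones at 1.82, 2.3, 3.68, 11.9, 44.1 and 26.7 CPM. Both classes of input had their highest value at 90 min.

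The footprint to input ratio of converted Pabpc1 reads was 0.774, 2.58, 1.47, 0.395 and 0.643 at 20, 40, 60, 90 and 120 min of experiment 1. For unconverted reads it was 1.56, 1.43, 0.488, 0.0938 and 0.209 at the same times, after 1.04 without label. In experiment 2 the converted ratio was 0.276, 0.344 and 1.07, and the unconverted ratio 0.554, 0.583 and 1.15, at 20, 30 and 40 min. From 40 min on in experiment 1 the converted ratio was the higher one, and in the other 4 labelled lysates the unconverted ratio was. At 20 min of either experiment the converted share of footprints was no higher than without label. With the share at 0 min taken off in each material, the converted share in footprints over that in input was 2.21, 3.29, 4.41 and 2.97 at 40, 60, 90 and 120 min of experiment 1. For Pabpc4 this quotient was 0.662, 1.05, 1.14 and 0.959.

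**Figure D4:**
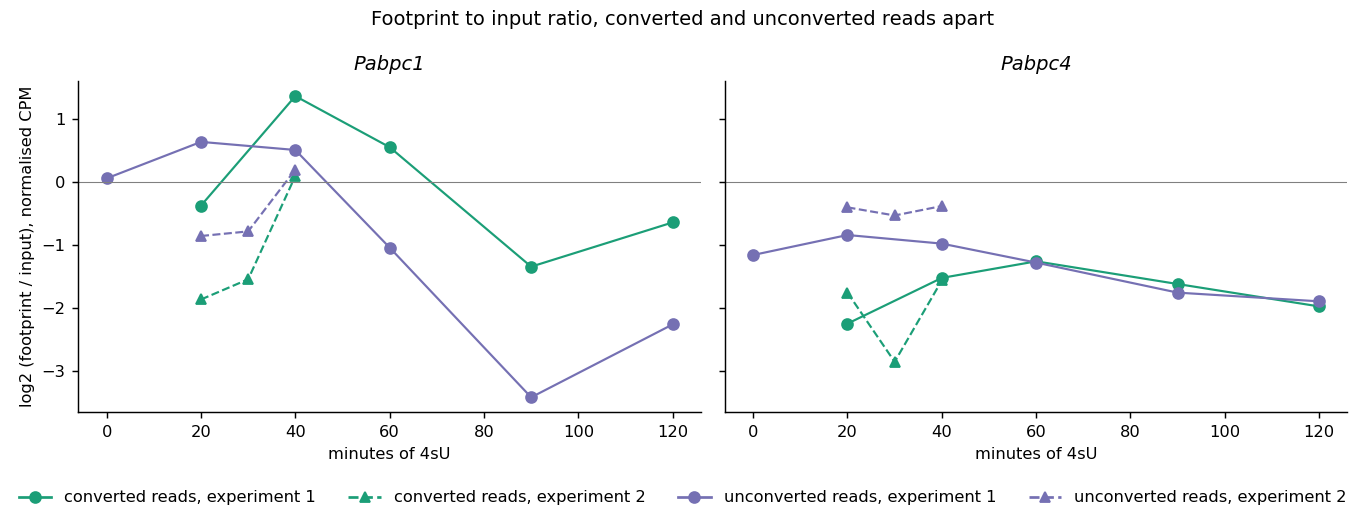
Log2 ratio of footprint to input normalised CPM against minutes of 4sU for converted (green) and unconverted (violet) reads of Pabpc1 and Pabpc4, with 1 point for each lysate, experiment 1 as circles and experiment 2 as triangles. At 90 min the ratio of Pabpc1 is 0.395 for converted and 0.0938 for unconverted reads, while both classes of Pabpc4 lie close together from 60 min on.

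Relative to the other genes of the same library, Pabpc1 was little labelled in input. Its log2 odds of conversion, centred on the median gene of each library, averaged -1.04 ± 0.375 (SD, n = 8) and lay below 0 in 8 of 8 labelled input libraries. In footprints the same measure averaged 0.29 ± 0.639 (SD, n = 8) and lay above 0 in 6 of 8. Pabpc4 averaged -0.37 ± 0.385 in footprints and -0.46 ± 0.458 in input (SD, n = 8 each). By limma its input value was -0.48 (SE 0.176, adjusted p = 0.0273), below 0 in 6 of 8 libraries, where 70.4% of 7045 genes passed, 35.2% of all as lower. That call was lost without the lysate of 60, 90 or 120 min (adjusted p = 0.0664, 0.0701 and 0.0551) and in experiment 2 alone, where the value was -0.09 (adjusted p = 0.699).

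Of the 10 genes of the poly(A)-binding family list, the 3 described and Zc3h14 could be tested. Zc3h14 encodes a nuclear zinc-finger protein that binds poly(A). Its footprints were lower than input by 1.02 log2 (log2 ratio -1.02, SE 0.076, edgeR adjusted p = 8.6e-09), and its log2 odds ratio of conversion was -0.52 (edgeR adjusted p = 0.084). The others had almost no reads, with 69 for Pabpc1l, an oocyte form, 11 for Pabpc6 and 1 for Pabpc2 over all 18 libraries, and 0 for Pabpc4l, Pabpc5 and Pabpn1l.

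Genes whose products bind or act with poly(A)-binding protein were described as a list of 29, of which 28 could be tested. In footprints against input 11 passed as higher and 11 as lower, at a median log2 ratio of 0.06 beside -0.04 for all genes, of which 35.3% passed as higher and 40.3% as lower. The translation termination factor gene Gspt1 was at 1.12 (edgeR adjusted p = 1.12e-08) and the helicase gene Eif4a1 at 0.77 (edgeR adjusted p = 2.24e-08). Tnrc6c, which encodes a partner of Argonaute in microRNA silencing, was at -1.46 (edgeR adjusted p = 9.31e-10), and Pan3, of the PAN2-PAN3 deadenylase, at -1.16 (edgeR adjusted p = 2.92e-09). Both directions thus occurred among partners, as among all genes.

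In conversion all 28 partners were below 0, of which 22 passed as lower in footprints, where 59.4% of all genes did, and 0 passed as higher. Their median was -0.90, beside -0.79 for all genes. The scaffold gene Eif4g1 was at -1.12 (edgeR adjusted p = 2.57e-07), and Larp1, whose product binds TOP mRNAs, at -1.22 (edgeR adjusted p = 6.16e-07). The highest of the 28 was at -0.17. With time, 3 partners passed as rising and 4 as falling in footprints, where 7.03% of all genes rose and 13.4% fell. In input 0 passed as rising and 2 as falling, where 0.403% of all genes rose and 5.83% fell. Tob1, an antiproliferative gene whose product recruits deadenylase, had the lowest footprint slope of the list at -0.56 per hour (edgeR adjusted p = 0.0118).

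Pabpc1 belongs by its leader to the TOP mRNAs, of which 23 others, without ribosomal proteins, could be tested. Their footprint slopes ran from 0.04 to 0.72 per hour with a median of 0.21, beside 0.00 for all genes, and 10 rose and 0 fell, where 7.03% of all genes rose. Eef1b2, a subunit gene of the elongation factor eEF1B, was at 0.35 per hour (edgeR adjusted p = 0.00211), and the initiation factor gene Eif3f at 0.34 (edgeR adjusted p = 0.00212). The Pabpc1 slope of -1.51, that of a gene chosen with its course known, lay below the range of these 23. The ribosomal protein mRNAs of the class were not in the list and were not compared with it. The input slopes of the 23 had a median of 0.24, beside -0.02 for all genes, and 1 of them was below 0. In the test 0 rose and 0 fell, where 0.403% of all genes rose and 5.83% fell.

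In footprints against input 19 of the 23 passed as higher and 0 as lower, where 35.3% of all genes passed as higher and 40.3% as lower. Their median was 0.60, beside -0.04 for all genes. The growth-related gene Tpt1 was at 1.37 (edgeR adjusted p = 4.23e-10), the histone chaperone gene Nap1l1 at 1.72 (edgeR adjusted p = 9.6e-10), Eif3f at 0.89 (edgeR adjusted p = 2.59e-09) and the splicing factor gene Hnrnpa1 at 1.55 (edgeR adjusted p = 3.89e-09). In conversion all 22 were below 0, of which 21 passed as lower in footprints, where 59.4% of all genes did, and 0 passed as higher. Their median of -0.72 was above the -0.79 of all genes. Hnrnpa1 was at -1.48 (edgeR adjusted p = 5.43e-14), Hnrnpdl at -1.56 (edgeR adjusted p = 3.23e-11), the importin gene Ipo5 at -1.32 (edgeR adjusted p = 6.44e-10) and Nap1l1 at -1.26 (edgeR adjusted p = 1.3e-09). The highest of the 22 was at -0.09, and Pabpc1, chosen by this same measure, is not ranked against them. In the labelling of input 18 of 22 passed as below the library median and 1 as above, where 35.2% of all genes passed in each direction. Their median was -0.78, with 20 of 22 below 0, so Pabpc1 at -1.06 lay inside their range of -1.66 to 0.60.

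**Figure D5:**
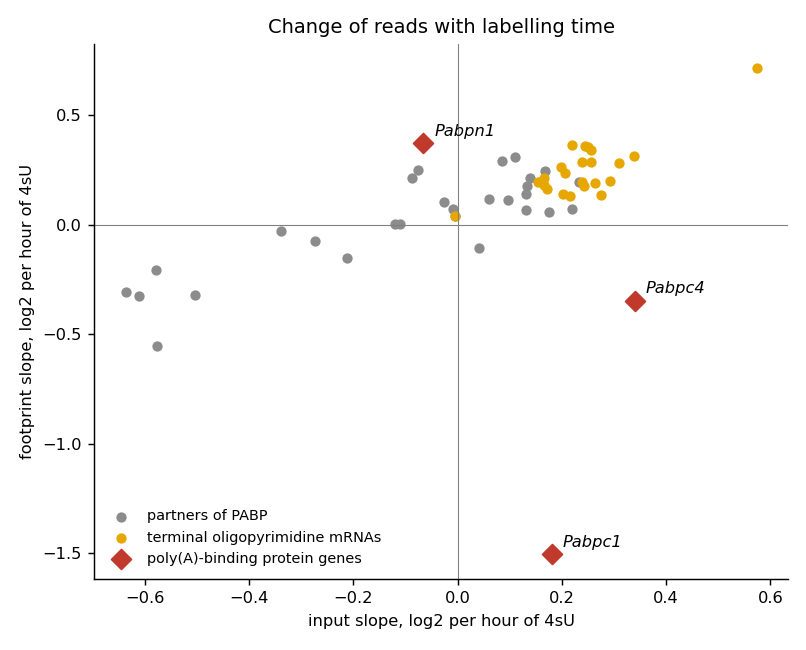
Log2 slope per hour of 4sU in footprints (vertical axis) against that in input (horizontal axis) for Pabpc1, Pabpc4 and Pabpn1 (red diamonds), 28 partners of poly(A)-binding protein (grey) and 23 other TOP mRNAs (orange). Pabpc1 lies at -1.51 in footprints and 0.18 in input, and the 23 TOP mRNAs shown, without ribosomal proteins, lie between 0.04 and 0.72 in footprints.

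The genes most like each member were ranked by the root mean square distance of their log2 footprint to input ratios over 9 lysates, among 8426 genes. Those nearest to Pabpc1 were Phlpp2 at 0.95, ZNF654 and Zkscan17 at 0.96, Atrip at 0.98 and Chd2 at 0.99. Nearest to Pabpc4 were Rps2 at 0.20, Rpl12 at 0.22 and Dph3 at 0.27, and nearest to Pabpn1 were Hist1h4h at 0.23 and Csf2ra and Hist1h4a at 0.26. The distance to the nearest gene was longer for Pabpc1 than for the other members. Pabpc1 was chosen by the course of this same ratio, so this is no separate result. In relative conversion over the 16 labelled libraries, among 7884 genes, Pabpc1 was nearest to Ucp2 at 0.51, Rpsa at 0.55, Adprh at 0.57, Dennd1b at 0.58 and Nmt1 at 0.60. Pabpc4 was nearest to Aimp1 at 0.24 and to Tbrg1 and Atp2a2 at 0.29. Of the genes named here, Rps2, Rpl12 and Rpsa are ribosomal protein genes, which the TOP list above left out.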

How the data were processed

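The authors' deposited files hold counts of raw reads per gene, split by how many T a read held (0 to 20) and how many of them were converted to C (0 to 3), a meaning read from the column headings, and 0 reads had more conversions than T. The submitters' processing notes name Bowtie 0.12.8 and mm10. The counting program and the handling of reads with several matches were not given in the sources used here.

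Fits covered the whole table, in R 4.3.3 with edgeR 4.0.16 (quasi-likelihood, TMM, filterByExpr), limma 3.58.1 and, as an alternative, DESeq2 1.42.0, after tests on simulated data. Footprints were compared with input with labelling time as a factor, slopes used hours of 4sU, and the ratio slope was the interaction of material with hours. Conversion used edgeR's design for methylation counts over 16 labelled libraries, for genes averaging 50 reads or more with 50 or more converted reads. Labelling of input was the log2 odds of conversion (pseudocount 0.5) relative to the median gene of the library, set against 0 by limma. All tests were two-sided, with Benjamini-Hochberg adjustment over all genes tested and a threshold of 0.05. The input and footprint libraries of 1 lysate are pairs by the protocol in the labels. Their deviations from the material means had correlations of 0.115 to 0.760, and in 4 of 9 lysates the own partner was the best match. Gene positions, sequences and windows came from GENCODE M21 (GRCm38).

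The members and lists were chosen with earlier results of these data known. The trend tests were planned for Pabpc1 too, but its p-values are withheld since its course was known. Of the list of partners and the TOP list, up to 4 genes with the smallest adjusted p in footprint density and in conversion were named by rule, and some of these genes are not reported here. For the footprint slopes, Tob1, Eef1b2 and Eif3f were picked once their values had been seen. The nearest 5 genes (Pabpc1) or 3 genes (Pabpc4, Pabpn1) were named among genes averaging 100 reads or more in each material. Alternatives were DESeq2 size factors and Wald test, no filter, lysate or experiment as a replicate block, 1 experiment alone, single lysates left out, a minimum mean of 200 reads, a pseudocount of 2, at least 2 conversions and, for the members, odds ratios at equal T count.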

Additional observations from a re-analysis of the deposited data

Results flagged for a closer look

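The labelling times differed in the direction of several Pabpc1 values, and these differences were not tested, since only 20 and 40 min had more than 1 lysate. The log2 odds ratio of conversion of Pabpc1, footprints over input, was 1.59 at 60 min, 2.07 at 90 min and 1.62 at 120 min, whereas both lysates of 20 min lay at -1.01. In both lysates of 20 min the footprint share was no higher than in the unlabelled footprints. The log2 footprint to input ratio of Pabpc1 was -0.78 at 30 min, -0.99 at 60 min, -3.32 at 90 min and -2.14 at 120 min, whereas the lysates of 40 min lay at 0.20 in experiment 2 and 0.52 in experiment 1. The lysates of 20 min lay on both sides of 0, at -0.85 in experiment 2 and 0.64 in experiment 1.

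For Pabpc4 the log2 odds ratio of conversion was 0.0199 at 60 min and 0.14 at 90 min, while all lysates of 20 and 40 min lay below 0. The 95% intervals of these values, from -0.53 to 0.57 at 60 min and from -0.34 to 0.61 at 90 min, cover counting error only and both include 0.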

How the results depend on the processing

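Of 339 alternative values 291 were counted as unchanged. For Pabpc4 and Pabpn1 this meant the same direction and the same side of the threshold. For Pabpc1 it meant the same sign and a move smaller than the SD between lysates or libraries. For its slopes and experiment differences the limit was the standard error of the fit. The SD was 1.31 for footprints over input and 1.28 for conversion, wider than the size of the values, -0.74 and 0.46. There the label says little about stability, and the 1.39 of conversion in experiment 1 alone counted as unchanged. Counts of genes called, which are among these values, had to stay within a set fold of the main count. The others were 26 that moved, 13 that lost a call, 5 that gained one and 4 that changed sign. The cause was not tested for any of them.

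For Pabpc1 the input slope was 0.66 in experiment 1 alone, the odds ratio of conversion was -0.62 in experiment 2 alone (added once results were known) and -0.0701 with at least 2 conversions, and the labelling of input was -1.91 with at least 2 conversions. For Pabpc4 the DESeq2 Wald test passed the footprint slope (-0.35) and the ratio slope (-0.69). Its conversion call was lost in experiment 1 alone (-0.17) and with at least 2 conversions (-0.82), and its labelling call under a minimum mean of 200 reads (-0.40, adjusted p = 0.057) and in experiment 2 alone (-0.0866). The Pabpn1 experiment difference in footprints lost its call by the Wald test (0.49).

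Genes called in conversion numbered 2288 with at least 2 conversions and 2021 in experiment 1 alone, against 4925, and in labelling 1720 with at least 2 conversions and 3031 in experiment 2 alone, against 4961. The Wald test called 1229 genes for the experiment difference in footprints and 2999 in input, against 3389 and 4960. It called 1285 for the input slope, against 619, and 9 for the ratio slope, against 0, which had 3 in experiment 1 alone.

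With lysate as a replicate block, the pairing of the protocol, footprints over input stood at -1.02 for Pabpc4 and 0.96 for Pabpn1, and 8316 genes passed, against 8002. The ratio slope then had 1 gene. With experiment as a replicate block the footprint slope of Pabpc4 was -0.20 and passed, and 1519 genes passed in the input slope. No other call on Pabpc4 or Pabpn1 changed under a block.

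Leaving out 1 lysate at a time, footprints over input ran from -0.90 to -0.47 for Pabpc1, -1.10 to -0.85 for Pabpc4 and 0.89 to 1.06 for Pabpn1, with 7750 to 7996 genes called. Input slopes ran from -0.37 to 0.63 for Pabpc1, 0.30 to 0.42 for Pabpc4 and -0.30 to 0.0589 for Pabpn1, with 0 to 775 genes called (0 without 120 min). Footprint slopes ran from -1.70 to -1.44, -0.48 to -0.29 and 0.32 to 0.53 in the same order of genes, with 64 to 2605 called (64 without 120 min and 1007 without 90 min). Ratio slopes ran from -2.14 to -1.06, -0.90 to -0.60 and 0.25 to 0.79, with 0 to 6 called. Conversion ran from 0.21 to 0.68 for Pabpc1 and -0.95 to -0.54 for Pabpc4, with 3455 to 5311 called, and labelling of input from -1.14 to -0.999 and -0.57 to -0.40, with 4368 to 5044 called.

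Most times had 1 lysate, and all times beyond 40 min belonged to experiment 1. Depth limited Pabpn1, whose 27 converted reads in labelled footprints and 20 in labelled input allowed no fit of conversion.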
